A study of Drosophila melanogaster with 12 samples.

Results

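Testes of 2 su(Hw) null genotypes of Drosophila melanogaster were set against each other: 3 arrays of 2/v and 3 of A2663/2, which are 6 of the 12 arrays of the series and were chosen by the genotype in their titles. Both nulls carried the alleles y[1] and w[67c23] and 1 copy of su(Hw)[2]. In A2663/2 the other copy was su(Hw)[A2663], on a chromosome with the P element insertion P{EPgy2}Amt[EY02782]. In 2/v it was su(Hw)[v], and the X also had the alleles ct[6] and f[1]. The other 6 arrays came from stocks with wild-type su(Hw): 3 from Canton S, a common laboratory wild type, and 3 from BL15598, which has the y and w alleles and the Amt insertion of A2663/2. All males were 3 days old, each array held RNA from about 100 pairs of testes, and the replicates are labelled as biological. Each null is a single genotype, so the su(Hw) alleles and the rest of the stock cannot be told apart within this pair.

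Su(Hw) is a zinc-finger DNA-binding protein best known as the protein that binds the insulator of the gypsy retrotransposon, where it can keep an enhancer from reaching a promoter. The alleles ct[6] and f[1] are gypsy insertions, and they are classical reporters of su(Hw) function. The allele su(Hw)[v] is a deletion that also reaches the neighbouring gene for an RNA polymerase II subunit, Polr2I. The comparison asks how alike the testis transcripts of the null combinations are, and which transcripts set them apart.

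The su(Hw) transcript was low in both nulls. Its signal was 64.0, 56.7 and 89.6 in the 3 arrays of A2663/2 and 38.7, 19.2 and 70.0 in those of 2/v, against 864, 885 and 1205 in Canton S and 1409.8, 1544 and 1223 in BL15598. Every null array lay below every wild-type array, and the ranges of the nulls overlapped. The log2 difference of 2/v minus A2663/2 was -0.88 (SE 0.401, adjusted p = 0.581), with a 95% interval from -1.78 to 0.02, and its direction was the same under all alternatives run. The other genes that the genotypes mark did not pass the test either: the log2 difference was -0.33 for y, -0.28 for ct, -0.16 for f and -0.39 for Amt, the ammonium transporter gene hit by the P element. On the probe set used here the signal of ct stayed near the median control signal of 20.4 in every genotype, at 35.8 or less (on another of its 3 probe sets BL15598 averaged 45.3 ± 12.2, SD, n = 3), and the direction for ct and f changed when single arrays were left out. For Polr2I and w no probe set carried the symbol by itself, and they were not analysed here. The nearest measured gene on each side of su(Hw) did not pass: 0.23 for IFT54, which makes an intraflagellar transport protein, and -0.39 for CG31321.

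The 6 libraries resembled each other and carried testis transcripts. Pearson's r of log2 signal was taken over all 18769 tested probe sets. It averaged 0.958 between an A2663/2 and a 2/v array (0.956 to 0.961). It averaged 0.964 within A2663/2, 0.961 within 2/v and 0.938 to 0.945 between a null and a wild type. Over the 16085 probe sets above the control level, the genotype means of the nulls differed by a median of 0.178 log2. Those of the other 5 pairs of genotypes differed by 0.266 to 0.293. Spermatid differentiation genes such as the protamine genes had a mean log2 signal of 13.99 to 14.16 in the null arrays, and spermatocyte transcription regulators had one of 10.71 to 10.85, both far above the control level of 4.35. Accessory gland protein genes were also detected (10.35 to 11.71), with overlapping ranges in the nulls, and so were muscle sheath genes (10.24 to 10.34). The ejaculatory duct and bulb genes stood at 9.45 in replicate 1 of A2663/2 against 5.57 and 6.89 in the other A2663/2 arrays and 7.04 to 7.41 in 2/v, and the part of these neighbouring tissues in the differences below was not tested.

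Few transcripts differed between the nulls. Of 18769 probe sets tested, 174 were called at an adjusted p under 0.05 (0.927%), of which 66 were higher in 2/v (0.352%) and 108 lower (0.575%), and 132 differed at least 2-fold (0.703%). At an unadjusted p under 0.05, 1663 passed (8.86%). In terms of named genes, each represented by its brightest probe set, 135 of 11953 were called (1.13%), of which 48 were higher in 2/v (0.402%) and 87 lower (0.728%), and 101 differed at least 2-fold (0.845%). The other 5 pairs of genotypes gave 6.83% to 10.6% of probe sets: 1281 for A2663/2 against BL15598, 1729 (9.21%) for A2663/2 against Canton S, 1799 for the wild types against each other, 1957 (10.4%) for 2/v against Canton S and 1997 for 2/v against BL15598. The null pair therefore had fewer calls than the pair of wild types, which both carry intact su(Hw). Each of the 6 null arrays mattered to the count: with any one of them left out, 71 to 81 genes were called, and 61 of the 135 were called in all 6 of these fits (19 higher in 2/v and 42 lower). With the spread taken from the 6 null arrays alone, 63 genes were called, 53 of them among the 135.

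Most bright transcripts were shown to be close between the nulls, and most dim ones were not. The 95% interval of the difference lay within 1 log2 unit (2-fold) either way for 8772 of the 9384 probe sets above the median signal (93.5%) and for 1942 of the 9385 below it (20.7%). Among the dim ones 62 were called, and for most of the others the interval did not exclude a 2-fold difference. Since these are whole testes, fewer cells of a type and less RNA per cell cannot be told apart in any difference that follows.

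**Figure D1:**
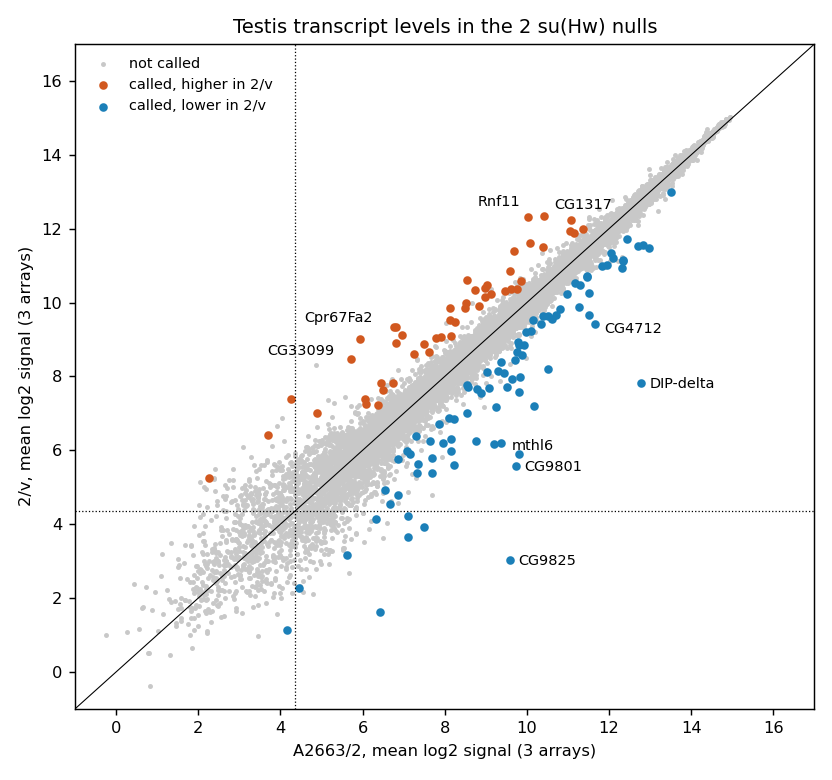
Mean log2 signal of 11953 genes in A2663/2 (x axis) and 2/v (y axis), 3 arrays each, with the line of equality and dotted lines at the median control signal. The 135 called genes are coloured by direction, and DIP-delta and CG9825 lie farthest below the line.

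The greatest differences were transcripts that 2/v had all but lost. DIP-delta encodes an immunoglobulin-domain protein of the neuronal surface that binds Dpr proteins and takes part in the choice of synaptic partners. Its signal was 6806, 7489.9 and 6708 in A2663/2 and 252, 208 and 226 in 2/v, while Canton S had 7639, 7594 and 7232 and BL15598 had 8217, 9234 and 7908. A2663/2 thus kept about the wild-type level of a bright testis transcript, and 2/v was 30.7-fold lower (log2 difference -4.94, SE 0.110, adjusted p = 4.94e-08), the smallest adjusted p of any gene. A second, dim DIP-delta probe set (means of 4.54 ± 2.58 and 20.2 ± 18.4, SD, n = 3) was near the control level and was not called, and averaging both probe sets ended the call (log2 difference -1.49, adjusted p = 0.288).

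CG9825 was 866, 571 and 902 in A2663/2 and 26.05, 2.46 and 8.57 in 2/v, below the control level in 2 of those 3 arrays. The difference was at least 37.4-fold (log2 difference -6.54, SE 0.661, adjusted p = 0.00159), and it kept its direction but not its call with the spread of the 6 null arrays alone (adjusted p = 0.076). CG33272 had 1139, 723 and 885 in A2663/2, which overlapped the wild-type arrays, and 76.2, 42.3 and 65.0 in 2/v (15.2-fold, log2 difference -3.92, SE 0.234, adjusted p = 8.32e-05). Its probe set carries the platform's suffix for probes that can bind several transcripts. Among bright transcripts, CG7694 had 8219.9, 7772 and 8274 in A2663/2 and 2819, 2874 and 2839 in 2/v, and all arrays outside 2/v lay at 7772 or above (2.84-fold lower in 2/v, log2 difference -1.51, SE 0.0997, adjusted p = 0.000158).

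Other bright transcripts were lower in 2/v by smaller factors. CG14931 stood at 6863, 6493 and 6651 in A2663/2 and 3135, 2856 and 2876 in 2/v (2.26-fold, adjusted p = 0.00164). CG9705 stood at 5025, 5338 and 5238 and 2422, 2336 and 2009.9 (2.31-fold, adjusted p = 0.000781). CG30156 stood at 6606, 7415 and 7728 and 2275, 3319.7 and 3539 (2.42-fold, adjusted p = 0.0076). In these 3 genes every 2/v array lay below the 9 other arrays. The call of CG30156 was lost with the 6 null arrays alone (adjusted p = 0.105).

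A smaller group was higher in 2/v than anywhere else. Cpr67Fa2, which encodes a protein of the chitin-binding cuticle family, had 122, 109 and 99.2 in A2663/2, 775, 571 and 597 in 2/v, 78.9, 70.0 and 89.5 in Canton S and 100.4, 89.4 and 86.1 in BL15598. The 2/v arrays stood 5.86-fold above A2663/2 (log2 difference 2.55, SE 0.153, adjusted p = 8.32e-05), and the 9 other arrays spanned 70.0 to 121.5. CG33099 had 67.0, 54.2 and 39.1 in A2663/2 and 348, 345 and 372 in 2/v (6.80-fold, log2 difference 2.77, SE 0.184, adjusted p = 0.000158). Here too no other array reached the 2/v arrays, since the wild types spanned 75.7 to 126.7.

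CG8301 (157, 104 and 87.1 against 622, 762 and 569, 5.76-fold, adjusted p = 0.000847) had the same form. So did CAHbeta, a beta-class carbonic anhydrase, which had 116, 114 and 105 in A2663/2 and 503, 485 and 457 in 2/v (4.31-fold, adjusted p = 0.00115). CG1317 was the brightest of them, at 1411, 1488 and 1207 in A2663/2 and 4503, 5478 and 5527 in 2/v (3.78-fold, adjusted p = 0.000517). sima, which encodes the hypoxia-inducible factor alpha subunit, was at 1521, 1259.7 and 1284 in A2663/2 and 2769.9, 2646 and 3267 in 2/v (2.14-fold, adjusted p = 0.00688), and the wild types spanned 726 to 1106. The sima call was lost with the 6 null arrays alone (adjusted p = 0.0662) and when its dim second probe set was averaged in (adjusted p = 0.591). Mp, a basement membrane collagen gene, was the reverse case: A2663/2 was low, at 1973, 2163 and 2265, while 2/v, at 3833, 3898 and 4004, overlapped BL15598 at 3881, 3661 and 3974 (1.84-fold, adjusted p = 0.0029, and 0.620 with its dim second probe set averaged in).

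**Figure D2:**
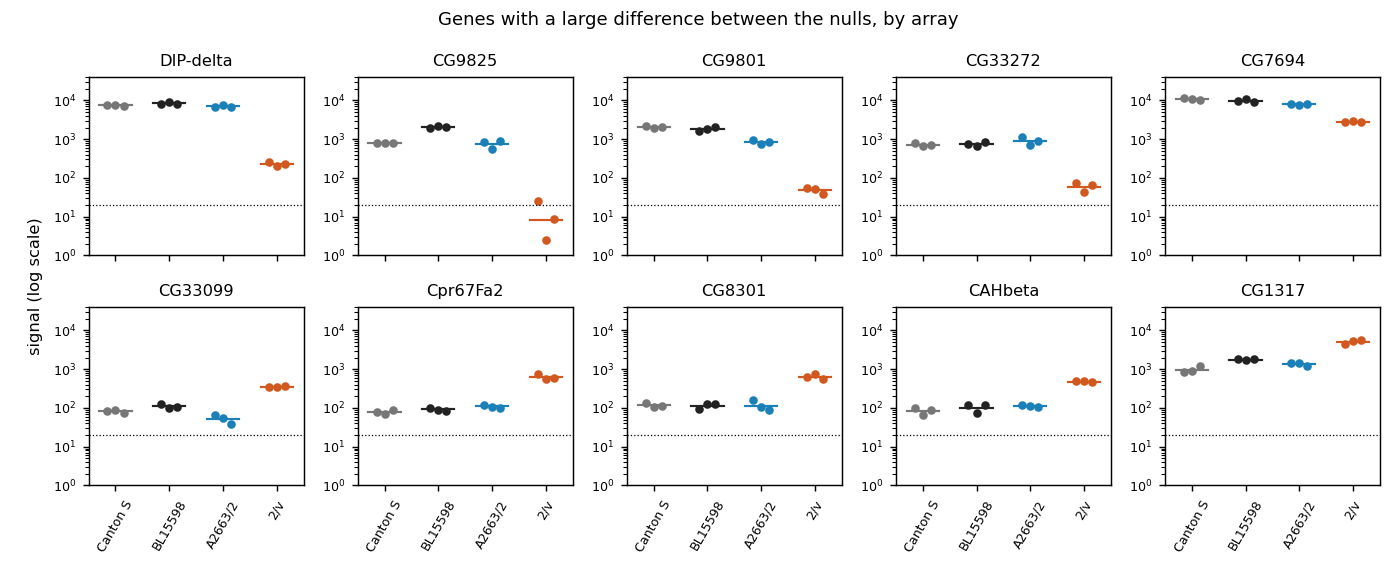
Signal on a log axis of 10 genes in the 12 arrays, by genotype; points are arrays, bars geometric means, and the dotted line the median control signal. The top row shows 5 genes low in 2/v, of which DIP-delta is at 6708 or more in the 9 other arrays and at 252 or less in 2/v, and the bottom row 5 genes high in 2/v.

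Several genes with large or bright differences were less steady. Eig71Ef, an ecdysone-induced gene, had 241, 142 and 171 in A2663/2 and 24.8, 5.58 and 25.4 in 2/v (at least 8.83-fold lower, adjusted p = 0.012), and Muc30E, a mucin gene, had 175, 125 and 121 and 11.8, 14.2 and 40.0 (at least 6.75-fold lower, adjusted p = 0.021). The nulls did not overlap in either gene, but the Eig71Ef call was lost without A2663/2 replicate 1 or 3 (highest adjusted p = 0.0571) and the Muc30E call without any array other than 2/v replicate 3 (highest adjusted p = 0.0927). Higher in 2/v, CG5715 had 6.61, 21.6 and 15.4 and 83.6, 102 and 70.7 (at least 4.14-fold, adjusted p = 0.0113), and its call was lost without 2/v replicate 2 (adjusted p = 0.0569). CG34001 (3.28-fold higher in 2/v) and CG43312 (2.22-fold higher) were bright, at 2403 to 5046 in 2/v, yet both calls were lost whichever null array was left out (highest adjusted p = 0.121 and 0.0982). CG34284 (723, 737 and 861 and 1815, 1854 and 1918, 2.41-fold higher, adjusted p = 0.000318) was called in all of these fits.

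Counted over all called genes, 2/v was more often the genotype that stood apart. The 3 arrays of 2/v lay outside the range of the 9 others in 92 of the 135 called genes (68.1%), below it in 60 and above it in 32, and those of A2663/2 did so in 16 (11.9%), 8 below and 8 above. Both nulls stood apart in 6 genes and neither in 33. Over all genes the shares were 5.6% for 2/v and 2.59% for A2663/2. Against the wild types, which are compared here with the same null arrays, 2/v alone was called one way against both in 61 of the 135 genes, A2663/2 alone in 4, and both nulls in 15. In no gene were both nulls called against both wild types in opposite directions. The wild types are not an even reference for the nulls, since BL15598 shares the Amt insertion with A2663/2. Among all probe sets, 6.83% were called for A2663/2 against BL15598 and 9.21% against Canton S. For 2/v the shares were 10.6% and 10.4%. How far this enters the higher counts of 2/v was not tested. All-gene shares for a single null called against both wild types are not given. The 3 and 3 null values did not overlap in any of the 135 called genes, beside 20.5% of all genes.

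Many genes called between the nulls also differed between the wild-type stocks. Of the 135 genes, 67 (49.6%) were called between BL15598 and Canton S, which share no array with the nulls, and they were 4.89% of the 1369 genes called there. Of all genes, 11.5% were called in that pair. In 53 of the 67 genes (79.1%) A2663/2 differed from 2/v in the direction in which BL15598 differed from Canton S. This is called here lying on the side of BL15598: 31 were higher in both and 22 lower in both. A2663/2 shares the Amt insertion with BL15598, on its su(Hw)[A2663] chromosome, while the y and w alleles of BL15598 are in both nulls. Over all 1369 genes that differed between the wild types, called or not between the nulls, that share was 58.7%. When each pair was fitted on its own 6 arrays, 26 probe sets were called in both pairs and all 26 put A2663/2 on the side of BL15598.

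mthl6, a member of the methuselah-like family of G protein-coupled receptors, had this order of genotypes. Its signal was 608, 672 and 716 in A2663/2 and 962, 897 and 1421 in BL15598, but 59.6, 76.3 and 88.7 in 2/v and 46.8, 101 and 65.0 in Canton S. The ranges of 2/v and Canton S overlapped, and both lay far below the other 6 arrays (8.98-fold between the nulls, log2 difference -3.17, SE 0.286, adjusted p = 0.000847). The sodium channel subunit gene ppk19 had 627, 459 and 696 in A2663/2 and 795, 1044 and 797 in BL15598, against 73.4, 66.3 and 77.4 in 2/v and 43.1, 87.0 and 40.9 in Canton S (8.10-fold, adjusted p = 0.00111). CG31337 was at 1118, 1172 and 1145 in A2663/2 and 1183, 1171 and 1092 in BL15598, against 192, 119 and 141 in 2/v and 68.9, 127 and 76.4 in Canton S (7.76-fold, adjusted p = 0.000379). In CG31337 the ranges of A2663/2 and BL15598 overlapped. CG12017 was at 415.6 to 438.8 in A2663/2 and 55.2 to 89.7 in 2/v (5.65-fold, adjusted p = 0.000235). BL15598 stood at 493.1 to 592.3 and Canton S at 94.6 to 102.4, so in this gene no genotypes overlapped.

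Pcd, which encodes a pterin-4a-carbinolamine dehydratase, was 4897, 5269.9 and 5212 in A2663/2 and 1837, 2207 and 1838 in 2/v (2.62-fold, log2 difference -1.39, SE 0.137, adjusted p = 0.00131), between 1248, 1136 and 1530.3 in Canton S and 7541, 7682 and 8794 in BL15598. Its 4 genotypes did not overlap, and 2/v lay above Canton S and A2663/2 below BL15598. TwdlP, a cuticle protein gene of the Tweedle family, was 5458, 5044 and 5077 in A2663/2 and 2175, 2382 and 2238 in 2/v (2.29-fold, adjusted p = 0.0354), with 497, 1017 and 736 in Canton S and 5657, 5880.0 and 5369 in BL15598. The TwdlP call was lost whichever null array was left out (highest adjusted p = 0.138).

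In the opposite direction, Rnf11, a RING-finger protein gene on chromosome 4, had 733, 1082 and 1457 in A2663/2 and 4668, 5155 and 5482 in 2/v, with 2734, 1632 and 2249 in BL15598 and 12396, 11749.5 and 10524 in Canton S (4.85-fold, log2 difference 2.28, SE 0.255, adjusted p = 0.0029). No genotypes overlapped. The call was lost with the 6 null arrays alone (adjusted p = 0.0581), and a second, dimmer Rnf11 probe set was not called (log2 difference -0.19, adjusted p = 0.864). Adgf-D, an adenosine deaminase-related growth factor, had 112, 108 and 157 in A2663/2, 597, 496 and 576 in 2/v, 181, 125 and 93.5 in BL15598 and 756, 755 and 1004 in Canton S (4.47-fold, adjusted p = 0.0032). Its A2663/2 and BL15598 arrays overlapped. wda, a subunit gene of the SAGA histone acetyltransferase complex, had 1209, 978 and 1073 in A2663/2 and 2911, 3407 and 3165 in 2/v (2.91-fold, adjusted p = 0.00111), but here BL15598 was low at 408, 439 and 511 and 2/v exceeded Canton S, at 1275, 1063 and 1411.

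The greatest differences of this kind were in dimmer transcripts and were less steady. Sox21a, a SoxB transcription factor gene known for its role in intestinal stem cell differentiation, was 121, 20.0 and 95.6 in A2663/2 and 509, 542 and 495 in 2/v (8.38-fold, adjusted p = 0.0489). Its call was lost without A2663/2 replicate 3 or any one of the 2/v arrays (highest adjusted p = 0.164). mas, which encodes the serine protease homologue masquerade, was 12.4, 11.2 and 49.2 in A2663/2 and 228, 244 and 86.4 in 2/v (at least 8.25-fold, adjusted p = 0.0426). That call was lost without replicate 1 or 2 of either null (highest adjusted p = 0.165). In both genes BL15598 was low and Canton S high. 2 homeobox genes and a transcription elongation gene, named here after their values were seen, had more even replicates: HGTX, an Nkx6 homologue, had means of 362 ± 26.2 in A2663/2 and 931 ± 57.3 in 2/v, scro, an Nkx2.1 homologue, 279.6 ± 23.6 and 750.5 ± 129, and Ctr9, of the Paf1 complex, 519.6 ± 53.6 and 1435 ± 218 (SD, n = 3). In BL15598 they averaged 98.3, 129.8 and 596, and in Canton S 1272, 699.6 and 2126. Whether their calls held with single arrays left out or under the other alternatives is not given.

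In 14 of the 67 genes A2663/2 lay on the side of Canton S, in 11 of them above 2/v and in 3 below it. CG11893 had 178, 87.1 and 172 in A2663/2 and 12.9, 6.46 and 23.6 in 2/v, with 35.3, 11.7 and 36.3 in BL15598 and 118, 112 and 105 in Canton S (at least 6.78-fold, adjusted p = 0.021), and its call was lost without replicate 1 or 3 of A2663/2 or replicate 1 or 2 of 2/v (highest adjusted p = 0.0935). CG6908 had 214, 236 and 306 and 66.8, 115 and 52.6, and CG13323 had 218, 155 and 257 and 89.2, 54.2 and 35.8; both calls were lost in 5 of the 6 fits that left out 1 array, all but the one without 2/v replicate 2 for CG6908 and without 2/v replicate 1 for CG13323 (highest adjusted p = 0.0964 and 0.181). Of the 3 below 2/v, Mp and CG1317 are given above, and CG14153 had 864, 1009 and 899 in A2663/2 and 1345, 1522 and 1727 in 2/v (1.65-fold, adjusted p = 0.025), a call lost without any array other than 2/v replicate 1 (highest adjusted p = 0.115).

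**Figure D3:**
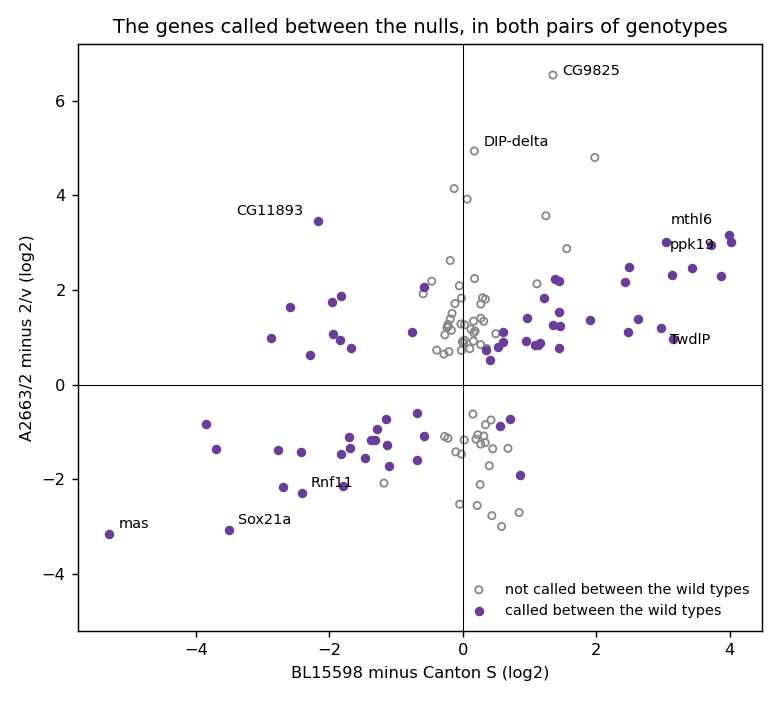
Log2 difference of A2663/2 minus 2/v (y axis) against that of BL15598 minus Canton S (x axis) for the 135 genes called between the nulls; filled points were also called between the wild types. Of the 67 filled points, 53 lie in the quadrants where A2663/2 is on the side of BL15598.

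In 45 of the 53 genes on the side of BL15598 the geometric mean of A2663/2 lay between those of BL15598 and 2/v. That of 2/v lay between those of Canton S and A2663/2 in only 20 of the 53. In 23 of the 53 the 2/v arrays lay outside the range of the 9 others. In the 31 genes high in BL15598, A2663/2 had a median of 0.691 of the BL15598 level (interquartile range 0.611 to 0.855). In the same genes 2/v had a median of 0.872 of the Canton S level (0.733 to 1.16). In the 22 genes low in BL15598, A2663/2 had a median of 2.33 times the BL15598 level (interquartile range 1.02 to 2.76). In these 2/v had 1.15 times the Canton S level (0.734 to 2.44). A2663/2 was itself called against BL15598 in 24 of the 53 genes and did not pass that test in the others, CG31337 and Adgf-D among them, and 2/v against Canton S also in 24.

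The called genes were concentrated on chromosome 3, which carries su(Hw). Arms were known for 134 of them, from RefSeq's gene table for the Release 6 plus ISO1 MT assembly, and 95 (70.9%) were on 3L or 3R, beside 44.7% of all measured genes. The share of measured genes that was called was 1.74% on 3L (41 genes), 1.81% on 3R (54), 0.767% on 2L (17), 0.74% on 2R (18) and 0.159% on the X (3 of 1883). The X, which differs by ct[6] and f[1], therefore had the lowest share of these arms. Its called genes were CG4194 (higher in 2/v), CG9917 and Gr2a (both lower), and Gr2a was below the control level in every 2/v array. In the wild-type pair, chromosome 3 held 49.2% of the called genes, with 12.6% of its measured genes called, against 12.2% on chromosome 2 and 6.59% on the X. Chromosome 3 also held 45 of the 61 genes called in all fits that left out 1 array. It held 44 of the 68 called genes that did not pass the test between the wild types (64.7%), beside 40 of the 53 on the BL15598 side (75.5%). Its share was 69.0% to 74.7% with single null arrays left out.

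**Figure D4:**
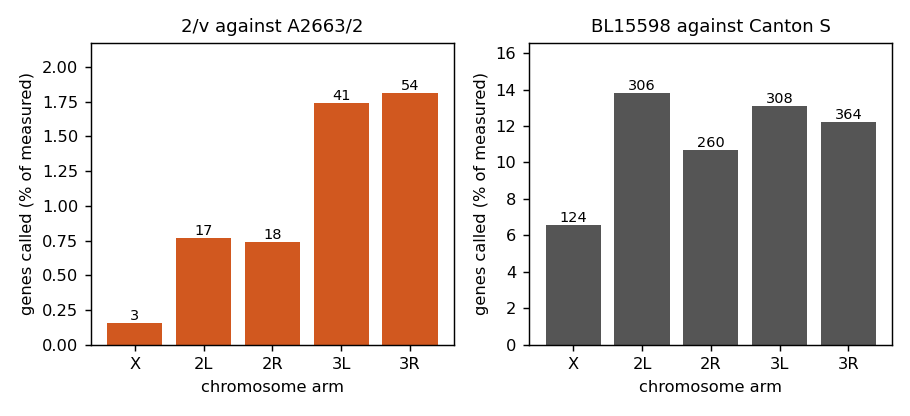
Genes called as a percentage of genes measured on each of the 5 large chromosome arms, for the nulls (left) and the wild types (right), with the number of called genes above each bar; the y axes differ. The nulls have 1.74% and 1.81% on the arms of chromosome 3 and 0.159% on the X, while the wild types have 10.7% to 13.8% on all autosome arms.

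Along the chromosomes the called genes were mostly scattered. Of the 10 measured genes nearest su(Hw), 5 on each side, 0 were called in the limma fit and 0 had an unadjusted p under 0.05, and the same held around ct and around f. Around Amt, 2 of 10 were called, beside 1.81% of measured genes on 3R, and both were lower in 2/v. Caf1-55, which encodes a histone-binding WD40 protein of several chromatin complexes, had a log2 difference of -1.28. It averaged 1638 in Canton S, 1628 in BL15598, 944 in A2663/2 and 386 in 2/v. CG34316, with -0.78, averaged 5486 in Canton S, 1719 in BL15598, 2819 in A2663/2 and 1641 in 2/v. A link of these calls to the insertion was not tested. The longest run of neighbouring called genes was CG18581, CG12310 and CG13461 on 3L, all lower in 2/v. CG12310 had 335, 239 and 291 in A2663/2 and 44.5, 66.3 and 86.9 in 2/v (4.50-fold, adjusted p = 0.00889). CG13461 had 29.9, 63.8 and 61.1 and 6.97, 8.41 and 12.1 (at least 2.39-fold, adjusted p = 0.00808), and CG18581 had 122, 119 and 109 and 55.8, 53.1 and 52.8 (2.17-fold, adjusted p = 0.0265). All 3 were higher in BL15598 than in Canton S, as in A2663/2 over 2/v. The CG18581 call was lost whichever null array was left out (highest adjusted p = 0.108), and those of CG12310 and CG13461 were lost with the 6 null arrays alone (adjusted p = 0.0728 and 0.0987). 2 further runs were pairs in which the neighbours went opposite ways, CG12538 with CG31337 and CG31220 with CG31219. CG12538 had 38.6, 23.4 and 28.7 in A2663/2 and 95.3, 164 and 139 in 2/v (4.38-fold higher, adjusted p = 0.0204), and its call was lost without replicate 2 or 3 of either null (highest adjusted p = 0.09). CG14598, also named by the rule, lay near or below the control level in both nulls and gets no fold.

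For most transcripts that changed in both nulls, the interval excluded a 2-fold difference between the nulls. There were 292 genes (2.44%) that differed in one direction for each null against each wild type, 209 higher in the nulls and 83 lower. These genes were picked with the same null arrays, so what follows describes them. Their median size of difference between the nulls was 0.192 log2, beside 0.166 over all genes, and for 219 of them (75%) the 95% interval lay within 1 log2 unit. Of the 209, 114 (54.5%) were higher in 2/v than in A2663/2, and of the 83, 57 (68.7%) were lower in 2/v. The all-gene share higher in 2/v was 50.5%.

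In 15 of the 292 the nulls themselves differed (5.14%, beside 1.13% of all genes), 10 that were low in both nulls and 5 that were high. In each of the 15, 2/v was the null farther from the wild types. With single null arrays left out, each in turn, 7 to 11 such genes were called, and in each of these fits 2/v was the farther null in all of them. With array weights or a trended prior 22 of 23 and 20 of 21 such genes were farther in 2/v.

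CG4712 was the brightest, at 18442, 17009 and 16257 in Canton S and 17347, 19818 and 21379 in BL15598. It was 2844, 2935 and 4102 in A2663/2 and 568, 701 and 812 in 2/v, so each null had lost most of the signal and 2/v stood 4.73-fold below A2663/2 (log2 difference -2.24, SE 0.180, adjusted p = 0.000379). In a noncoding RNA, lncRNA:CR40465, the signal went from 4762, 4411 and 5254 in Canton S and 4323, 4449 and 3869 in BL15598 to 323, 339 and 248 in A2663/2 and 50.2, 28.9 and 80.0 in 2/v (6.17-fold, adjusted p = 0.00363, and 0.0952 with the 6 null arrays alone). Obp58c, an odorant-binding protein gene, went from 3114, 3238 and 3211 in Canton S and 2330.2, 2175 and 1903 in BL15598 to 561, 629 and 633 and then 131, 144 and 162 in 2/v (4.17-fold, adjusted p = 8.32e-05). In each of these genes the 4 genotypes kept the order of wild types, A2663/2 and 2/v without overlap between the nulls.

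CG9801 showed the widest gap. Its signal was 2256, 1895 and 2009.6 in Canton S and 1649, 1885 and 2107 in BL15598, 975, 753 and 828 in A2663/2 and 55.7, 51.7 and 38.1 in 2/v. A2663/2 lay below both wild types and well above 2/v (17.7-fold, log2 difference -4.14, SE 0.173, adjusted p = 8.65e-06). CG4210 (160.1, 164 and 167 and 47.8, 64.3 and 40.3, 3.28-fold) and CG43050 (246, 226 and 403 and 116, 71.3 and 60.3, 3.56-fold) were further members. The CG43050 call was lost without A2663/2 replicate 1 or 3 or 2/v replicate 2 or 3 (highest adjusted p = 0.0982). CG18682 was another member (102, 83.1 and 98.5 and 27.3, 48.0 and 20.9, 3.12-fold), whose call was lost without any array other than 2/v replicate 2 (highest adjusted p = 0.129). The remaining members, named after their values were seen, were ODA-Dnal1, an axonemal dynein light chain gene (804 ± 101 in A2663/2, 247 ± 31.9 in 2/v), CG9917 (276 ± 35.6 and 117 ± 6.69) and Caf1-55 (944 ± 113 and 386 ± 13.7, SD, n = 3).

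The 5 genes higher in both nulls and highest in 2/v were Ir100a, lmd, NPFR, klg and CG8960. Ir100a, an ionotropic receptor gene, had 203, 158 and 194 in Canton S, 82.5, 90.1 and 83.0 in BL15598, 287, 277 and 279.7 in A2663/2 and 846, 906 and 1019 in 2/v (3.28-fold between the nulls, log2 difference 1.71, SE 0.122, adjusted p = 0.000235). lmd, a Gli-related transcription factor gene that acts in muscle development, had 398, 484 and 402 in A2663/2 and 1197, 1127 and 1595 in 2/v (3.03-fold, adjusted p = 0.00221), against 139.0 to 297.2 in the wild types. NPFR, the neuropeptide F receptor gene, had 453, 481 and 428 and 947, 929 and 1010.2 (2.12-fold, adjusted p = 0.00878), against 188.5 to 352 in the wild types. These 3 genes kept the order of wild types, A2663/2 and 2/v with no overlap between nulls.

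CG8960 had 409.9, 409 and 301 in A2663/2 and 1366, 1978 and 1412 in 2/v (4.23-fold, adjusted p = 0.0215). klg, which encodes the immunoglobulin-domain adhesion protein Klingon, had 276, 284 and 362 and 624, 584 and 993 (2.34-fold, adjusted p = 0.047). The calls of CG8960 and klg were lost whichever null array was left out (highest adjusted p = 0.0975 and 0.176), and that of NPFR without A2663/2 replicate 3 (adjusted p = 0.0513). The klg call was also lost with median centring and with quantile normalization of the arrays (adjusted p = 0.0603 and 0.0542).

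**Figure D5:**
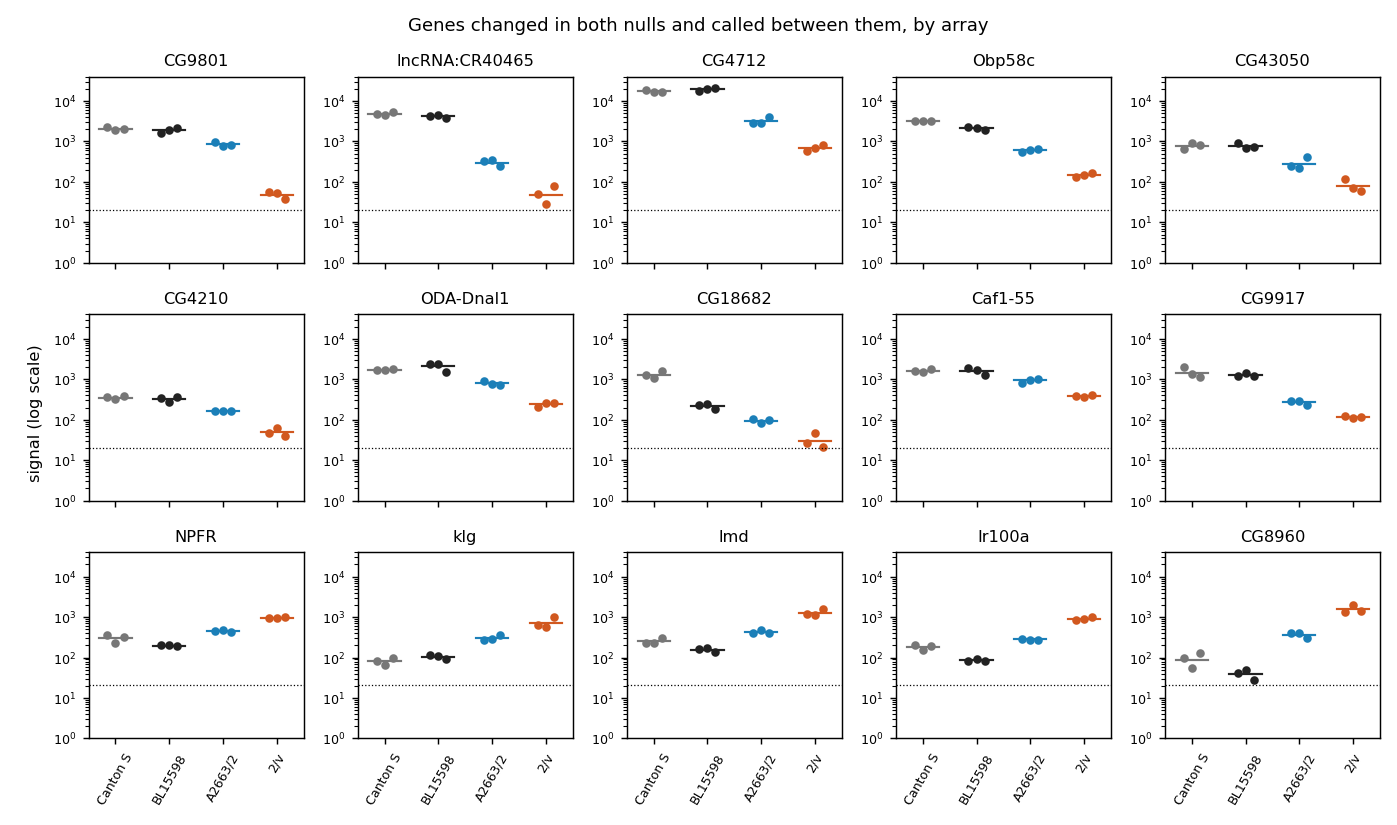
Signal on a log axis of the 15 genes called one way against both wild types in both nulls and also called between the nulls; points are arrays, bars geometric means, and the dotted line the median control signal. In the top 10 panels 2/v is the lowest genotype and in the last 5 the highest.

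The lists of testis genes held 1 called gene, SoYb of the piRNA pathway. Among the other lists of testis genes, 0 of 16 measured germline stem cell and spermatogonium genes, 0 of 15 spermatocyte transcription regulators, 0 of 13 meiotic division genes, 0 of 23 spermatid differentiation genes, 0 of 15 cup and comet genes, 0 of 8 Y-linked fertility genes and 0 of 13 hub and cyst cell genes were called by limma. Over all genes 1.13% were called, a share at which lists of this size hold few called genes or none. At an unadjusted p under 0.05, 1 member of each of these lists passed. Median log2 differences of these lists ran from -0.09 to 0.10, beside 0.00 over all genes, and the interval lay within 1 log2 unit for 15, 15, 13, 23, 15, 7 and 10 members. For the spermatid differentiation genes (23 of 23) and the cup and comet genes (15 of 15) every measured member thus had an interval that excludes a 2-fold difference.

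The piRNA pathway silences transposons in the germ line. SoYb, a Tudor-domain protein gene of that pathway, had 213, 208 and 184 in A2663/2 and 70.4, 92.3 and 69.4 in 2/v (2.62-fold, adjusted p = 0.0129), with 124, 114 and 187 in Canton S and 107, 121 and 137 in BL15598. No other of the 27 measured members was called, 4 were lower at an unadjusted p under 0.05 and 0 higher, and the median was -0.11 log2. The mean log2 signal of the list was 9.73 to 9.75 in A2663/2 and 9.58 to 9.62 in 2/v, so the null arrays did not overlap, and 9.61 to 9.75 in the wild types. The null arrays also did not overlap in the insulator, fat body, immune effector and proteasome lists described below, nor in 20.5% of single genes. The SoYb call was lost without replicate 1 or 2 of A2663/2 or replicate 1 or 3 of 2/v (highest adjusted p = 0.0655).

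The list of insulator and architectural protein genes, some of whose products work with Su(Hw), gave 0 calls between the nulls. So did the lists of neuronal genes, a class that Su(Hw) is known to repress in the ovary. Of 17 insulator and architectural protein genes, 1 passed an unadjusted p under 0.05, 16 had an interval within 1 log2 unit, and the 1 outside was su(Hw) itself. Their mean log2 signal was 9.08 to 9.19 in A2663/2 and 8.98 to 9.06 in 2/v. Of 19 neuronal ion channel genes, 24 synaptic vesicle and adhesion genes and 11 neuronal RNA-binding and transcription genes, 0 were called, 2, 2 and 2 passed an unadjusted p under 0.05, and 12, 16 and 4 had an interval within 1 log2 unit. The mean log2 signal of the synaptic genes was 7.84 to 8.01 in A2663/2 and 7.88 to 7.92 in 2/v. It was 7.06 to 7.38 in the wild types, so every null array stood above every wild-type array. The other neuronal lists did not separate in this way. The ion channel genes had 7.40 to 7.77 in 2/v and 7.29 to 7.57 in BL15598. The RNA-binding and transcription genes had 6.27 to 6.88 in A2663/2 and 6.39 to 6.79 in BL15598.

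The lists of other tissues and gene families had few called members. Accessory gland, ejaculatory duct, muscle sheath, fat body, hemocyte and pigment cell lists had 0 called of 19, 5, 17, 11, 14 and 9 measured genes, and 0, 0, 3, 2, 1 and 0 at an unadjusted p under 0.05. The mean log2 signal of the fat body list was 8.84 to 9.23 in A2663/2 and 9.33 to 9.39 in 2/v. It was 8.40 to 8.72 in Canton S and 8.64 to 8.79 in BL15598, so here too every null array stood above every wild-type array. The immune effector list had 0 called of 14, 4 at an unadjusted p under 0.05, and a median of -0.59 log2. Its mean log2 signal was 7.09 to 7.74 in A2663/2 and 6.43 to 6.91 in 2/v, and only 2 of its intervals lay within 1 log2 unit. Drsl3, a drosomycin-like gene that the list left out, was called. It had 1530.5, 1395 and 1467 in A2663/2 and 278, 298 and 311 in 2/v (4.95-fold lower, adjusted p = 0.000256). BL15598 averaged 974 and Canton S 108. Cytoplasmic ribosomal protein and heat shock protein genes had 0 called of 41 and 14 (3 and 0 at an unadjusted p under 0.05), all with intervals within 1 log2 unit. Proteasome subunit genes, UDP-glycosyltransferase genes and Jonah and other trypsin-like protease genes had 0 called of 40, 35 and 22, and 3 of each passed an unadjusted p under 0.05.

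Few chemosensory and detoxification genes were called. In the odorant, gustatory and ionotropic receptor families 5 of 165 genes were called, 3 higher in 2/v and 2 lower, beside 1.13% of all genes. The mean log2 signal of this list was 4.88 to 5.29 in the null arrays, beside a control level of 4.35. Ir94a had 85.0, 85.0 and 86.0 in A2663/2 and 8.37, 2.59 and 1.32 in 2/v, where every array was below the control level (at least 4.18-fold, adjusted p = 0.0029, and 0.0819 with the 6 null arrays alone). Gr28a, a gustatory receptor gene, had 93.0, 94.4 and 84.1 in A2663/2 and 193, 197 and 204 in 2/v (2.19-fold, adjusted p = 0.0114). Here A2663/2 was the low genotype, since the wild types spanned 194.2 to 313.3, and the call was lost without A2663/2 replicate 3 or 2/v replicate 2 or 3 (highest adjusted p = 0.0626). Ir75a and Gr2a were the other called members. Gr2a lay near or below the control signal of 20.4, at 36.1, 23.6 and 12.4 in A2663/2 and 3.44, 5.70 and 5.71 in 2/v (at least 1.07-fold).

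Of 81 cytochrome P450 genes, Cyp6a13 was called, at 822, 940.0 and 769 in A2663/2 and 384, 281 and 394 in 2/v (2.41-fold lower, adjusted p = 0.00717, and 0.0782 with the 6 null arrays alone). Of 34 glutathione transferase genes, GstZ1 was called (347, 359 and 428 and 199, 202 and 228, 1.80-fold lower, adjusted p = 0.0263), and that call was lost whichever null array was left out (highest adjusted p = 0.116). Cpr67Fa2 was the only called gene among 77 cuticle protein genes and Obp58c the only one among 47 odorant-binding protein genes. Over all 30 lists, 10 of 845 list places were called, beside 1.13% of all genes.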

How the data were processed

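RNA of 12 testis samples, 3 for each of 4 genotypes, was amplified and hybridised to 1-colour Affymetrix Drosophila Genome 2.0 arrays. The deposited values are probe-set intensity on a linear scale; RMA and Partek 6.5 are named in the submitters' processing notes, but each array has a mean of 1500.03 after trimming 2% at each end, and how the authors scaled them is open. The log2 of the intensity was taken with no offset or further normalization. All 12 arrays were fitted in limma 3.58.1 (R 4.3.3) as 4 genotype means (8 residual degrees of freedom), with the contrast 2/v minus A2663/2. Two-sided p-values were adjusted by Benjamini-Hochberg over 18769 probe sets, without 183 control probe sets, and called under 0.05. Intervals are 95%, not adjusted. The number of arrays limits the precision.

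A gene is its brightest probe set with 1 symbol (13647 probe sets; 402 had several symbols, 4720 none), and 11942 of 11953 genes matched RefSeq. Folds are ratios of geometric means; a side below the median control signal of 20.4 was raised to it, and the fold is then "at least".

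Alternatives were median centring, quantile normalization, an offset of 16, a filter on dim probe sets, the 6 null arrays alone, a trended and robust prior, array weights, the replicate number as a block, the mean of a gene's probe sets, and each null array left out. The members and gene lists were chosen with earlier results of these data known. Named by rule were the marked genes and the neighbours of su(Hw); the 12 called genes per direction with the greatest difference; the 8 brightest called genes per direction of at least 2-fold; up to 3 called genes per list; up to 6 per direction called in all 4 null and wild-type pairs and between the nulls; up to 4 per sign combination called in both the null and the wild-type pair; and the longest run of neighbouring called genes. Called genes named to complete a count of 5 or fewer were named after their values were seen, and so were HGTX, scro, Ctr9 and Drsl3. Promoter and protein sequences were not used here.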

Additional observations from a re-analysis of the deposited data

How the results depend on the processing

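The 174 probe sets became 85 with the 6 null arrays alone and 318 with array weights, 172 with median centring, 204 with quantile normalization, 194 with the dim probe sets filtered out and 242 with the trended and robust prior. Those higher in 2/v (66) became 42, 134 and, with an offset of 16, 100, and those lower (108) became 43 and 184 with the null arrays alone and with array weights. The count of at least 2-fold (132) was 81 with the null arrays alone, and the 84 probe sets called in both pairs were 26 when each pair was fitted alone. The 135 genes were 63 with the null arrays alone, 236 with array weights and 160 with the mean of a gene's probe sets, and the share on chromosome 3 was 81.0% with the null arrays alone. With single null arrays left out, the counts ran from 92 to 107 probe sets, 31 to 51 higher, 56 to 71 lower, 86 to 97 of at least 2-fold, 71 to 81 genes, 203 to 234 genes called in all 4 null and wild-type pairs, and 69.0% to 74.7% on chromosome 3. These fits have fewer arrays.

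With the replicate number as a block, 122 probe sets and 95 genes were called. Deviations from the genotype means correlated little between same-numbered null arrays (r from -0.03 to 0.08). Over same-numbered arrays of all genotypes r ran from -0.06 to 0.13. The labels give no batch, so these values cannot show whether same-numbered arrays shared one. With single null arrays left out, the log2 difference of ct ran from -0.49 to 0.021 and that of f from -0.59 to 0.066. The sign turned for ct without A2663/2 replicate 1 and for f without A2663/2 replicate 1 or 3, and averaging the probe sets of f gave 0.12. Neither gene was called in any fit. Of the 57 named genes that were called, 23 kept their call and all kept their direction under every alternative, and 34 lost the call under at least 1. With the null arrays alone the calls of Sox21a, mas, CG5715, Eig71Ef, CG11893, Muc30E, klg, CG43050, CG6908, CG13323, GstZ1, CG18682, CG14153, CG12538 and CG14598 were also lost (highest adjusted p = 0.229). Dim transcripts limit what can be seen, since 20.7% of probe sets below the median signal had an interval within 1 log2 unit.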

Other observations

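Probe sets without a gene symbol of their own held some of the greatest differences between the nulls. Of the 174 called probe sets, 25 had no symbol and 3 had several. The 2 with the highest genotype mean were probe sets 1632140_at and 1626392_s_at. The first was among the brightest of the array in the wild types, at 15941 to 23862, and stood at 2517, 2344 and 2589 in A2663/2 and at 58.3, 91.5 and 440 in 2/v (log2 difference -4.22, adjusted p = 0.0115). It had the form of CG4712, with most of the signal gone in A2663/2 and more of it gone in 2/v. The second followed the stocks instead: it had 9629, 10946 and 10171 in A2663/2 and 14311 to 25977 in BL15598, against 1436, 1729 and 2354 in 2/v and 495 to 1207 in Canton S (adjusted p = 0.0118).

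Different probe sets of a gene did not always carry the same difference. pip, which encodes a sulfotransferase known from the patterning of the egg, was called, lower in 2/v, on 2 of its 10 probe sets. On the bright one A2663/2 averaged 2906 ± 308 and 2/v 818 ± 89.2 (SD, n = 3), 3.56-fold apart. On the dimmer one A2663/2 averaged 543 ± 51.0 and 2/v 18.2 ± 8.96, below the control level, so the difference was at least 26.5-fold. The other 8 were not called, with log2 differences of -2.26 to 0.63 and a lowest adjusted p of 0.104. On the dimmer called probe set Canton S was also below the control level (10.7 ± 4.56), and BL15598 was at 1022 ± 84.3. The main probe set of the ribosomal protein gene RpS7 did not pass the test (log2 difference -0.09, adjusted p = 0.926), while a dim one was at 32.4 ± 4.61 in A2663/2 and 277 ± 26.5 in 2/v (log2 difference 3.10, adjusted p = 8.32e-05), with 3.54 ± 0.666 in BL15598 and 84.3 ± 14.5 in Canton S. These probe sets were chosen after their values were seen.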
